A study of Mus musculus with 9 samples.

Results

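The aryl hydrocarbon receptor battery was followed in mouse liver as 7 genes chosen by their symbols, out of 54393 genes in the deposited table. They are the receptor Ahr, its partner Arnt, the repressor Ahrr, the cytochrome P450 genes Cyp1a1 and Cyp1a2, the ADP-ribosyltransferase Tiparp and the glucuronosyltransferase Ugt1a6a. Liver RNA was sequenced from C56Bl/6j mice (the strain as the labels spell it) that all ate the purified diet AIN-76a. In 4 libraries, numbered 1, 2, 3 and 5, the mice had received non-absorbable antibiotics, given to deplete their gut bacteria. The reference was 5 control libraries, numbered 1 to 5, from conventional mice without antibiotics. Age, sex, the antibiotics used, their dose and duration, and the hour of collection were not stated in the labels. No allele or transgene is named for either group. The comparison asks which hepatic transcripts differ between mice depleted of gut bacteria and conventional mice.

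The aryl hydrocarbon receptor is a ligand-activated transcription factor of the bHLH-PAS family. Without ligand it is held in the cytoplasm by Hsp90 and co-chaperones. After binding a ligand, such as a dioxin, a dietary indole or a tryptophan product of gut bacteria, it enters the nucleus, pairs with Arnt and binds xenobiotic response elements. CYP1A1 and CYP1A2 oxidise planar aromatic compounds, some of the ligands included. Hepatocytes express Cyp1a2 without an added inducer, whereas Cyp1a1 is low in uninduced liver. AHRR competes with the receptor for ARNT, and TIPARP modifies the receptor and limits its activity, so that both are targets that feed back on it.

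The battery did not move as a block. Cyp1a1 was lower in the antibiotics livers than in the control livers, 2.41-fold by the fitted change, with no overlap between the groups. Its neighbour Cyp1a2 had a log2 fold change of 0.20 and overlapping groups. The receptor Ahr, its partner Arnt, Tiparp and Ugt1a6a did not pass the test, and Ahrr was too scarce to be tested. In the quasi-likelihood test of edgeR, adjusted by Benjamini-Hochberg over all genes, 1 of the 6 tested members passed an adjusted p of 0.05, in the lower direction, and 0 were higher. Over all 14873 genes tested, 2.68% passed, 1.63% as higher and 1.05% as lower, so 1 of 6 is a statement about Cyp1a1 and not about the battery. DESeq2 and limma-voom each called 1 member as well, Cyp1a1, beside 6.77% and 2.78% of all genes. Cyp1a1 was also the 1 tested member whose groups did not overlap, beside 8.88% of all genes tested. At an unadjusted p under 0.05 the count was 3 of 6 members (Cyp1a1, Ugt1a6a and Arnt), beside 18.5% of all genes tested.

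The bases just before the start sites of Cyp1a1 and its neighbour Cyp1a2 are shown because the core GCGTG is the motif to which the receptor and Arnt bind. The genes lie head to head on chromosome 9, and their RefSeq start sites (GRCm38.p6) are 14 kb apart. The 250 bases before each start are printed 5′ to 3′ on the gene's own strand, with any GCGTG core in capitals. The Cyp1a1 stretch is chr9:57697363-57697612 on the plus strand, and the Cyp1a2 stretch is chr9:57683656-57683905 on the minus strand.
Cyp1a1: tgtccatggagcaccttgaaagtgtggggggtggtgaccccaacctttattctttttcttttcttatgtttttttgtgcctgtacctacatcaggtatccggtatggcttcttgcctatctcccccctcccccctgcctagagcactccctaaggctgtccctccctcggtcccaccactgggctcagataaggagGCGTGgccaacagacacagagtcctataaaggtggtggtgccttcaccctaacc
Cyp1a2: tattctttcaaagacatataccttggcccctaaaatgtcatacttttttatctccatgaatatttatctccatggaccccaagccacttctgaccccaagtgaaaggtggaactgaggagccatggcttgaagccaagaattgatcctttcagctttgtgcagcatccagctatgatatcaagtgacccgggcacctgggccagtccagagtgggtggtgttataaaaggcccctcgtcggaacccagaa
The Cyp1a1 stretch held 1 core, whose first base is 54 bases upstream of the start, and the Cyp1a2 stretch held none on either strand. The known dioxin-responsive enhancer of Cyp1a1 lies further upstream than this window, and GENCODE M21 also annotates Cyp1a1 exons that begin upstream of the RefSeq start.

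Of the 7 members, 6 had a RefSeq promoter window of 300 bases (250 before the start to 50 after it), and Ahr had none. The core GCGTG was searched on both strands (CACGC on the reverse) and stood in 4 of the 6 windows. Ahrr had 3 cores, at 107, 82 and 27 bases upstream, Arnt had 1 at 29 bases, Tiparp had 1 on the reverse strand at 170 bases, and the Ugt1a6a window had none. That Ugt1a6a window is set at the RefSeq start, base 88134809 of chromosome 1. The first exon of Ugt1a6a-201, the transcript used for the locus below, begins at base 88138378, and the bases just before it were not searched. Over 27025 promoter windows of the same length, 32.5% held the core. The longer motif TNGCGTG, of which the core is a part, stood in 1 member window, that of Ahrr, and in 5.12% of all windows. These matches describe letters and do not show binding. The member with the lower transcript, Cyp1a1, and members that did not pass, Arnt and Tiparp, all held a core.

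Levels between members are compared per length, as CPM (normalised read counts on TMM-scaled libraries) per kb of annotated exon. All annotated exon bases of a gene are counted, which can exceed the length of a single transcript. Cyp1a2 was highest, at 217 ± 30.1 CPM per kb in the antibiotics libraries (SD, n = 4) and 188 ± 32.3 CPM per kb in the control libraries (SD, n = 5). Ugt1a6a followed at 34.9 ± 1.41 CPM per kb with antibiotics and 41.3 ± 4.39 CPM per kb in controls. Both enzymes thus stood well above every regulator. Arnt was at 4.48 ± 0.342 CPM per kb with antibiotics and 3.97 ± 0.250 CPM per kb in controls. Ahr was at 3.62 ± 0.243 CPM per kb with antibiotics and 3.40 ± 1.21 CPM per kb in controls. On this length the Ahr and Arnt levels overlapped between control libraries. The annotated exons are 8007 bases for Arnt and 6163 bases for Ahr. The longest coding transcripts are 4325 and 5548 bases, so the overlap depends on the length used. Tiparp was at 1.58 ± 0.428 CPM per kb with antibiotics and 1.60 ± 0.453 CPM per kb in controls. Cyp1a1 was at 0.227 ± 0.0724 CPM per kb with antibiotics, against 0.540 ± 0.0710 CPM per kb in controls. Ahrr was lowest, at 0.0187 ± 0.0156 CPM per kb with antibiotics and 0.0117 ± 0.0105 CPM per kb in controls.

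**Figure D1:**
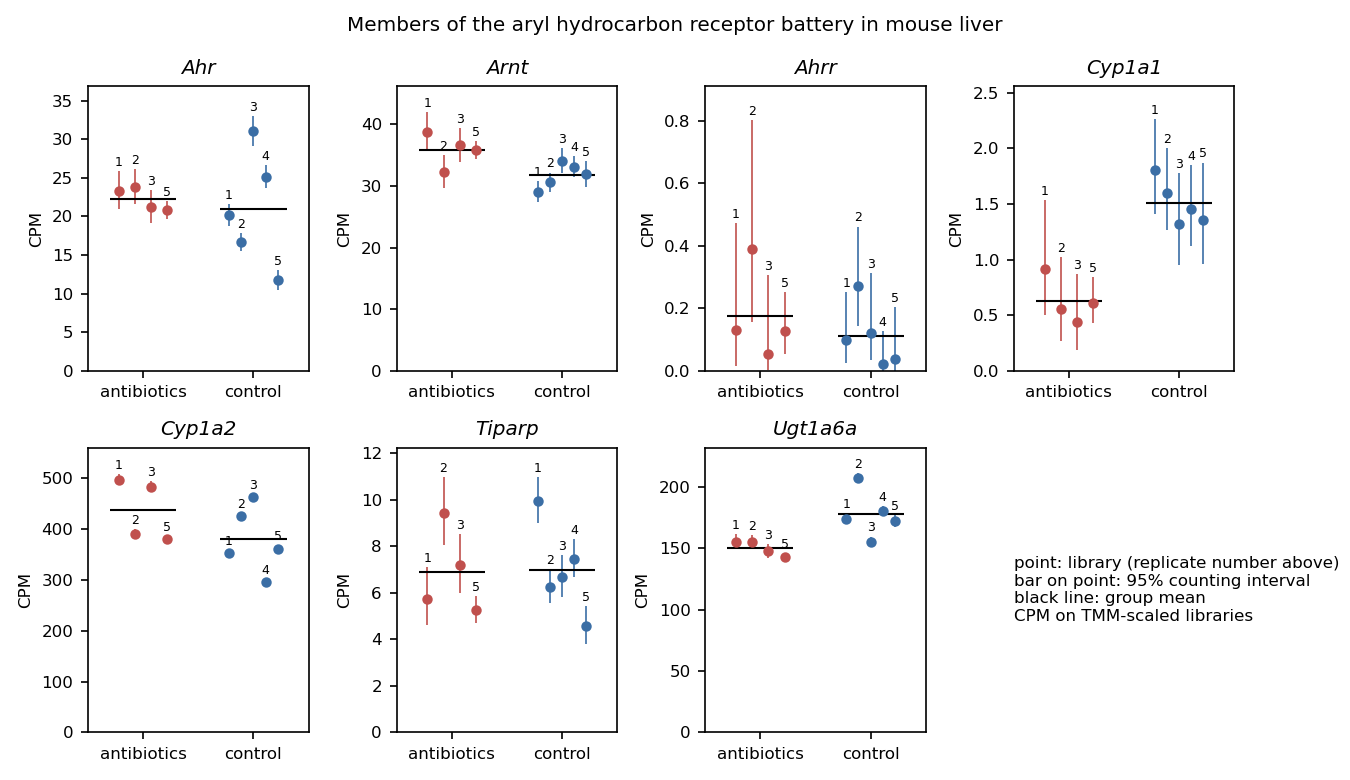
CPM of the 7 members in each library, with antibiotics libraries left of control libraries, a 95% counting interval on each point and a black line at the group mean. Cyp1a1 is the member whose groups do not overlap, at 0.442 to 0.915 CPM with antibiotics and 1.32 to 1.80 CPM in controls, and Ahr is spread widely in controls (11.7 to 31.1 CPM).

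The libraries held 15422891, 18001886, 18504624 and 59179622 estimated counts with antibiotics (replicates 1, 2, 3 and 5) and 28156248 to 49628737 in controls, so 3 of the 4 antibiotics libraries were shallower than every control. The tissue label fitted its markers: all 6 hepatocyte markers were abundant and 0 of 6 passed the test. Of the Kupffer cell, lymphocyte, sinusoidal endothelial, stellate and cholangiocyte markers, 0 passed. Summed Kupffer cell markers ran from 188 to 244 CPM with antibiotics and from 183 to 529 CPM in controls. Of markers of neighbouring tissues, 1 of 5 intestinal, 1 of 4 pancreatic and 1 of 4 adipocyte genes were tested, and 0 passed. Summed over 5 intestinal markers the level ran from 61.1 to 86.0 CPM with antibiotics and from 49.8 to 66.8 CPM in controls, nearly all of it Fabp2 (log2 fold change 0.27, edgeR adjusted p = 0.214). The intestinal marker Cdx2 was at 0 in every library, and Vil1, Muc2 and Cdh17 had at most 10 counts. Summed over 4 pancreatic markers, of which Cel and Pnlip were at 0 in every library, the level ran from 0.261 to 0.553 CPM with antibiotics and from 0.173 to 0.522 CPM in controls. Summed over 4 adipocyte markers it ran from 2.45 to 4.41 CPM with antibiotics and from 0.691 to 3.93 CPM in controls, most of it Cidec (log2 fold change 1.03, adjusted p = 0.217). The adipocyte marker Adipoq, not tested, was at 0.939 CPM in antibiotics library 3. It was at 0 in the other antibiotics libraries and at 0 to 0.147 CPM in controls. The part of these tissues in the values of the battery was not tested. The sum of mitochondrially encoded mRNAs, which can move with RNA quality, ran from 49480 to 73733 CPM with antibiotics and from 44895 to 65301 CPM in controls, and 0 of 13 passed. The median log2 fold change of all genes tested was -0.01.

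Ahr, the receptor itself (ENSMUSG00000019256.17, chromosome 12, 35497974 to 35535038, minus strand, GRCm38 with GENCODE M21), was present in every library. It measured 23.3, 23.8, 21.2 and 20.9 CPM in antibiotics libraries 1, 2, 3 and 5, against 20.1, 16.7, 31.1, 25.1 and 11.7 CPM in control libraries 1 to 5. The antibiotics libraries sat close together inside the control range, and control libraries 3 and 5 were the high and the low end. The group means were 22.3 ± 1.497 CPM with antibiotics (SD, n = 4) and 20.9 ± 7.47 CPM in controls (SD, n = 5), so the coefficient of variation was 6.72% with antibiotics and 35.7% in controls. The log2 fold change was 0.09 ± 0.22 (SE, 95% interval -0.40 to 0.57, edgeR adjusted p = 0.877), which leaves room for a moderate change in either direction. Without control library 5 it was -0.06. Over the control libraries Ahr ran in the same order as the summed mitochondrial mRNAs. These were 52516, 49161, 65301, 54192 and 44895 CPM in control libraries 1 to 5. In antibiotics libraries 1, 2, 3 and 5 they were 64249, 73733, 72393 and 49480 CPM, and there the order was not the same. The part of RNA quality in the Ahr spread was not tested. The lincRNA Gm48236, on the opposite strand, overlaps 2.06% of the Ahr exon bases.

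Arnt, the obligate partner with which the receptor binds DNA (ENSMUSG00000015522.18, chromosome 3, 95434388 to 95497240, plus strand), varied least among controls. It measured 38.8, 32.2, 36.6 and 35.8 CPM in antibiotics libraries 1, 2, 3 and 5, against 29.1, 30.6, 34.1, 33.2 and 31.9 CPM in control libraries 1 to 5. Antibiotics library 2 lay inside the control range and the other 3 above it. The means were 35.9 ± 2.74 CPM with antibiotics and 31.8 ± 2.00 CPM in controls (SD, n = 4 and 5). The log2 fold change was 0.17 ± 0.08 (SE, 95% interval 0.01 to 0.34), with an unadjusted p of 0.0404 and an edgeR adjusted p of 0.247, so the difference did not hold after adjustment over all genes.

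Ahrr, the repressor that competes for Arnt (ENSMUSG00000021575.16, chromosome 13, 74211118 to 74292331, minus strand), was near the limit of detection. It had 2, 7, 1 and 8 counts in antibiotics libraries 1, 2, 3 and 5, against 4, 13, 4, 1 and 1 counts in control libraries 1 to 5. The counts are scattered in both groups and overlap. The corresponding means were 0.176 ± 0.147 CPM with antibiotics and 0.110 ± 0.0987 CPM in controls (SD, n = 4 and 5). Ahrr failed the filter on low counts and has no test, and a difference was not detectable at this depth.

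Cyp1a1, the target most often used to read out receptor activity (ENSMUSG00000032315.6, chromosome 9, 57687928 to 57703824, plus strand), was low everywhere and lower with antibiotics. It had 14, 10, 8 and 38 counts in antibiotics libraries 1, 2, 3 and 5, against 73, 77, 43, 64 and 37 counts in control libraries 1 to 5. On the CPM scale these were 0.915, 0.5575, 0.442 and 0.612 with antibiotics, against 1.80, 1.60, 1.32, 1.45 and 1.36 in controls. Every antibiotics library was below every control library, which was true of 4.29% of all genes tested. The closest pair was antibiotics library 1 and control library 3, whose exact 95% counting intervals, 0.500 to 1.54 CPM and 0.954 to 1.78 CPM, overlap. The deepest antibiotics library, 5, had an interval of 0.433 to 0.840 CPM, below that of every control.

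The mean of Cyp1a1 was 0.632 ± 0.202 CPM with antibiotics and 1.51 ± 0.198 CPM in controls (SD, n = 4 and 5). The log2 fold change was -1.27 ± 0.23 (SE, 95% interval -1.78 to -0.76, edgeR adjusted p = 0.0221), the 107th smallest p of 14873. In bulk liver RNA, fewer cells that express the gene and less transcript per cell cannot be told apart. The direction held in each fit that left out 1 library, but the call did not. The adjusted p was 0.0523 without antibiotics library 2, 0.0672 without antibiotics library 3, 0.0828 without antibiotics library 5 and 0.0505 without control library 1, and Cyp1a1 passed in the other 5 of 9 fits. With all libraries thinned to the smallest total the log2 fold change was -1.18 (adjusted p = 0.0464), so the fall was about as large at equal depth.

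**Figure D2:**
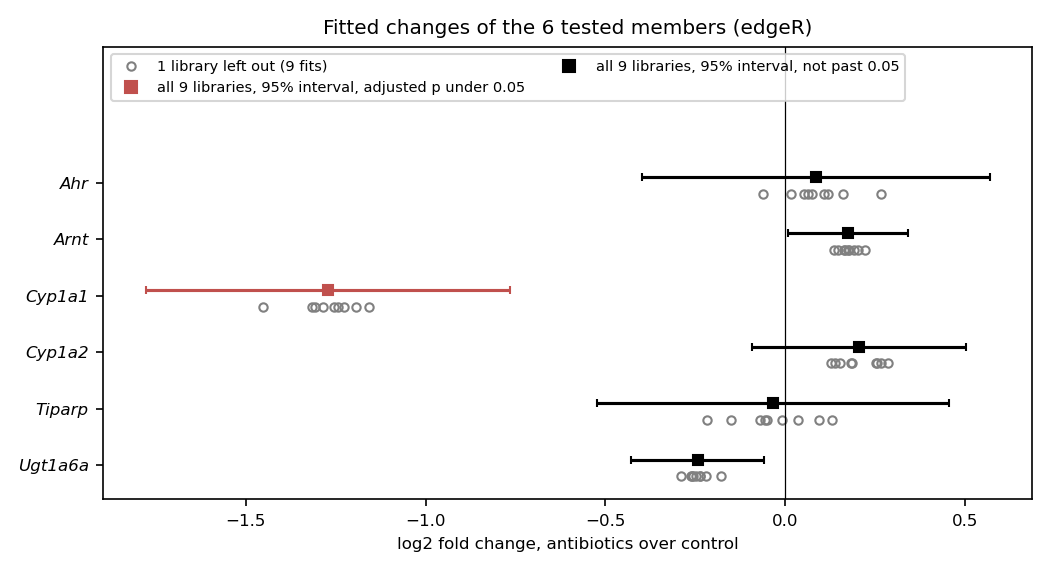
Fitted log2 fold changes (antibiotics over control) of the 6 tested members with 95% intervals, and below each the values when 1 of the 9 libraries is left out. Cyp1a1 stands at -1.27, and the values without 1 library run from -1.45 to -1.16. The intervals of Ahr, Cyp1a2 and Tiparp include 0.

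Cyp1a2, the hepatic CYP1A enzyme that clears caffeine and estradiol (ENSMUSG00000032310.4, chromosome 9, 57676937 to 57683703, minus strand), was far more abundant than its neighbour. It measured 496, 390, 483 and 380 CPM in antibiotics libraries 1, 2, 3 and 5, against 353, 426, 462, 296 and 361 CPM in control libraries 1 to 5. The groups overlap, with antibiotics libraries 1 and 3 above all controls. The means were 437 ± 60.7 CPM with antibiotics and 379 ± 64.9 CPM in controls (SD, n = 4 and 5). The log2 fold change was 0.20 ± 0.14 (SE, 95% interval -0.09 to 0.50, edgeR adjusted p = 0.458), which excludes a fall of the size seen for Cyp1a1. Cyp1a2 is expressed around the central vein, and the summed markers of pericentral hepatocytes ran from 7605 to 10499.7 CPM with antibiotics and from 5598 to 7161 CPM in controls. Most of that sum is Cyp2e1, at 4703 to 7363 CPM with antibiotics and 3437 to 4467 CPM in controls. In that list 1 of 10 genes passed, Oat, beside 2.68% of all genes, and the median log2 fold change was 0.21. Glul, the defining marker of the cells at the central vein, had a log2 fold change of -0.06 (adjusted p = 0.792), and Lgr5 one of -0.42 (adjusted p = 0.324). The other markers were above 0: Oat 0.71, Cyp2e1 0.53, Tbx3 0.49, Rhbg 0.48, Slc1a2 0.26, Cyp27a1 0.15, Gulo 0.10 and Axin2 0.09. The part of pericentral content in the Cyp1a2 and Cyp1a1 values was not tested.

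The pair was compared within each library as the ratio of Cyp1a1 to Cyp1a2 counts, which does not depend on the scaling between libraries. Antibiotics libraries 1, 2, 3 and 5 had 542, 699, 1092 and 621 Cyp1a2 counts per Cyp1a1 count, against 196, 266, 350, 204 and 265 in control libraries 1 to 5. Every antibiotics library was above the highest control, library 3. On the log2 scale the ratio was -9.48 ± 0.44 with antibiotics and -7.97 ± 0.34 in controls (SD, n = 4 and 5). The difference of the means was -1.51, and -1.44 after thinning to equal depth. The pair was chosen with both genes' results known, and Cyp1a1 alone already separated the groups, so the ratio is a description and carries no test.

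**Figure D3:**
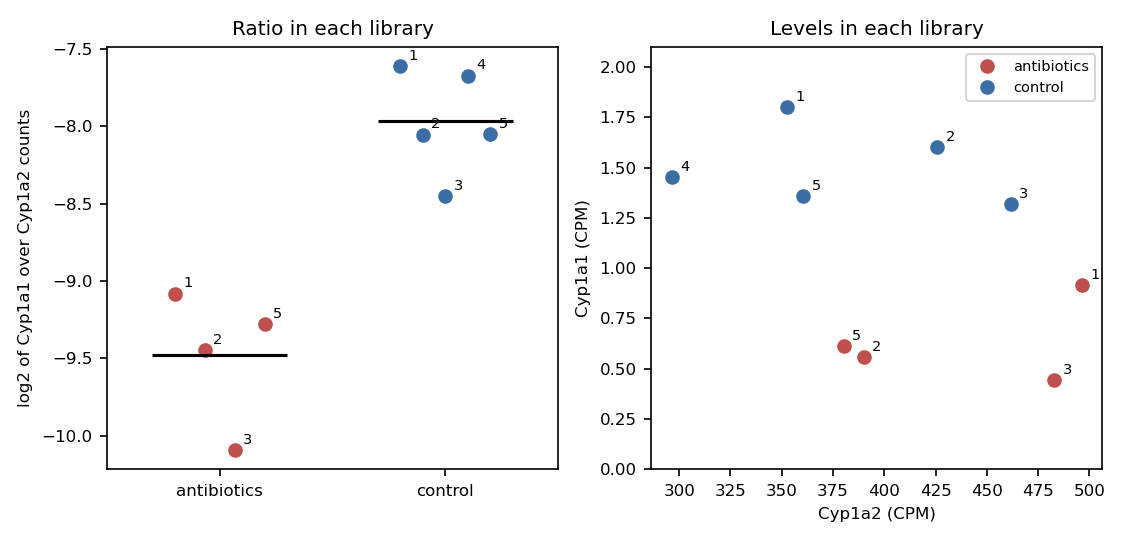
Left, log2 of the ratio of Cyp1a1 to Cyp1a2 counts in each library (numbers are replicates, lines are group means). Right, CPM of Cyp1a1 against CPM of Cyp1a2 in the same libraries. The antibiotics libraries lie below the control libraries in the ratio (means -9.48 and -7.97), while their Cyp1a2 levels of 380 to 496 CPM overlap the control range of 296 to 462 CPM.

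Tiparp, the ADP-ribosyltransferase that dampens the receptor (ENSMUSG00000034640.9, chromosome 3, 65528410 to 65555518, plus strand), had almost equal group means. It measured 5.75, 9.42, 7.18 and 5.26 CPM in antibiotics libraries 1, 2, 3 and 5, against 9.95, 6.26, 6.68, 7.46 and 4.55 CPM in control libraries 1 to 5. The highest and the lowest values were both in controls. The means were 6.91 ± 1.86 CPM with antibiotics and 6.98 ± 1.97 CPM in controls (SD, n = 4 and 5), and the log2 fold change was -0.03 ± 0.22 (SE, 95% interval -0.52 to 0.46, edgeR adjusted p = 0.958). Its sign turned in several of the alternatives. The pseudogene 4931440P22Rik, on the opposite strand, overlaps 5.12% of the Tiparp exon bases (223 bases). Its match in the search for close copies, made on both strands, could be these same bases. Whether the 2 genes share reads depends on the use of strand in counting, which is not given.

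Ugt1a6a, which glucuronidates planar phenols (ENSMUSG00000054545.17, chromosome 1, 88134809 to 88218997, plus strand), had a mean below that of the controls but did not pass. It measured 156, 155, 148 and 143 CPM in antibiotics libraries 1, 2, 3 and 5, against 174, 207, 155, 181 and 172 CPM in control libraries 1 to 5. The groups touch only at the highest antibiotics library and the lowest control, library 3. The means were 150 ± 6.08 CPM with antibiotics and 178 ± 18.9 CPM in controls (SD, n = 4 and 5). The log2 fold change was -0.24 ± 0.08 (SE, 95% interval -0.43 to -0.06), with an unadjusted p of 0.0142 and an edgeR adjusted p of 0.152.

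How far the Ugt1a6a count can be told from its neighbours depends on the locus, in which the main transcript of each gene has its own first exon and all share the exons after it. The 30 last bases of the first exon (lower case) and the 30 first bases of the shared exon 2 (capitals, chr1:88215044-88215175 for the whole exon, plus strand) are shown for the 5 most abundant genes, read from GENCODE M21 transcripts on GRCm38.
Ugt1a6a: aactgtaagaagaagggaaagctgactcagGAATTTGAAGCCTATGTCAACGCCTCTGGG
Ugt1a6b: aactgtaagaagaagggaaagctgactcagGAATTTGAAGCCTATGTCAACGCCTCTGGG
Ugt1a1: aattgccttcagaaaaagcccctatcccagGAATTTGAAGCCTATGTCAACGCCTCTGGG
Ugt1a5: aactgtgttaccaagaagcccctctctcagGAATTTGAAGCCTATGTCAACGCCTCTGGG
Ugt1a9: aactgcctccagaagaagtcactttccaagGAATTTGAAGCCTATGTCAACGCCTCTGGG
The capitals are the same in all 5 genes, and so are all 1311 bases after the first exon. In lower case, Ugt1a6a and Ugt1a6b are identical while Ugt1a1, Ugt1a5 and Ugt1a9 differ from them. Over the whole first exon Ugt1a6b matched Ugt1a6a at 96.5% of aligned bases (905 of 938), and each of the other 3 at 54.9%. The shared exons are 30.4% of the annotated Ugt1a6a exon bases, and with Ugt1a7c, whose annotated exons overlap more of them, the share is 50.3%. On the opposite strand Gm20528 overlaps 9.14%. Hence counts of each gene rest on how reads from these were divided, and the split between Ugt1a6a and Ugt1a6b is the least certain.

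Ugt1a6a and Ugt1a6b had fold changes of the same sign and about the same size. Ugt1a6b averaged 127 ± 13.3 CPM with antibiotics and 155 ± 11.3 CPM in controls (SD, n = 4 and 5), with a log2 fold change of -0.29 ± 0.09 (edgeR adjusted p = 0.0985). The 2 genes summed, an alternative added after seeing the data, gave 257 to 296 CPM with antibiotics against 298 to 380 CPM in controls. The sum averaged 277 ± 19.2 CPM with antibiotics and 332 ± 29.6 CPM in controls. The groups of the sum did not overlap, which was already so for Ugt1a6b alone (114 to 141 CPM with antibiotics, 143 to 173 CPM in controls). Of all genes tested, 8.88% had groups that did not overlap. The log2 fold change of the sum was -0.26 ± 0.09 (edgeR adjusted p = 0.133), again not past the threshold.

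Ugt1a1, the bilirubin-conjugating enzyme and the most abundant gene of the locus, had a fold change of the opposite sign. It averaged 330 ± 37.4 CPM with antibiotics and 269 ± 35.9 CPM in controls (SD, n = 4 and 5), with a log2 fold change of 0.29 ± 0.11 (edgeR adjusted p = 0.192). Ugt1a5 had a log2 fold change of 0.43 ± 0.17 (adjusted p = 0.209) and Ugt1a9 one of -0.31 ± 0.13 (adjusted p = 0.230). Among the 8 other genes of the locus 6 were tested and 0 passed. An unadjusted p under 0.05 was found for 4 of them (18.5% of all genes), with 1 call by DESeq2 (6.77% of all genes) and 0 by limma-voom (2.78%). All 9 genes summed, the locus had a log2 fold change of 0.03 ± 0.09 (adjusted p = 0.891). As a share of the counts of the locus, Ugt1a6a took 19.2 ± 0.834% with antibiotics and 23.2 ± 1.16% in controls, and Ugt1a1 took 42.2 ± 4.40% with antibiotics and 35.2 ± 2.97% in controls, which is given as a description without a test.

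**Figure D4:**
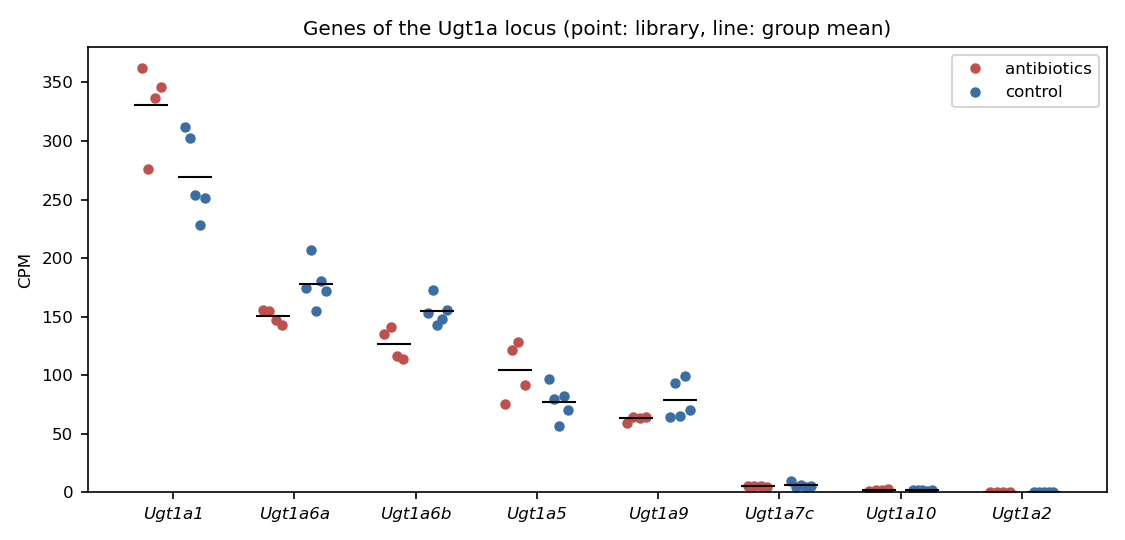
CPM of genes of the Ugt1a locus in each library, antibiotics left of control for each gene, with a line at the group mean. Ugt1a6a (150 and 178 CPM with antibiotics and in controls) and Ugt1a6b (127 and 155 CPM) are lower with antibiotics on average, Ugt1a1 is higher (330 and 269 CPM), and none of the differences passed the adjusted threshold.

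Around the battery, 81 genes in 5 lists of the wider pathway were read from the same fit, and 71 were tested. Of these 5 were higher and 2 lower, or 9.86% of those tested, beside 2.68% of all genes. The lists were drawn up with results of these data known, so the 2 shares are not independent. DESeq2 called 19 of them, beside 6.77% of the genes for which it gave an adjusted p.

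Chaperones and nuclear cofactors of the receptor held no call. Of 17 genes, all tested, 0 passed with edgeR, 4 had an unadjusted p under 0.05 (18.5% of all genes), and DESeq2 called 2 (6.77%) and limma-voom 0 (2.78%). The median log2 fold change was -0.03. Hsp90aa1, the inducible chaperone that holds the receptor ready for ligand, averaged 146 ± 20.3 CPM with antibiotics and 186 ± 14.96 CPM in controls (log2 fold change -0.35, edgeR adjusted p = 0.0892). Its constitutive relative Hsp90ab1 had a log2 fold change of -0.27 (adjusted p = 0.147), and the nuclear exporter Xpo1 one of 0.46 (adjusted p = 0.117). Summed over the list, the levels did not overlap, at 1272 to 1394 CPM with antibiotics and 1481 to 1633 CPM in controls. Of all single genes tested, 8.88% had groups that did not overlap. Most of the sum is Hsp90ab1, at 801 ± 58.3 CPM with antibiotics and 963 ± 72.9 CPM in controls. The groups of Hsp90ab1 overlapped (729 to 867 CPM with antibiotics, 853 to 1043 CPM in controls), and so did those of Hsp90aa1. The sum is thus not a statement about the list as a whole.

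Among the bHLH-PAS relatives, which share Arnt or its fold, 1 of 9 tested genes passed, beside 2.68% of all genes. An unadjusted p under 0.05 was found for 6 (18.5% of all genes), with 3 calls by DESeq2 (6.77%) and 2 by limma-voom (2.78%). Per3, a repressor of the clock, rose to 37.2 ± 5.64 CPM with antibiotics, against 16.4 ± 6.45 CPM in controls (log2 fold change 1.18 ± 0.24, edgeR adjusted p = 0.0334). The clock activators Arntl and Npas2, close relatives of Arnt and of the receptor's own family, had log2 fold changes of -1.09 (adjusted p = 0.0597) and -1.29 (adjusted p = 0.0776), and Per2 one of 0.76 (adjusted p = 0.0985). The median over the list was -0.02, and Per1, another clock gene, had a log2 fold change of 0.15 (adjusted p = 0.698). The hour of collection is not given for either group, and its part in these values was not tested. Per3 passed only without antibiotics library 2, control library 3 or control library 5 among the fits that left out 1 library, with an adjusted p of up to 0.102 in the others. Arnt2, Sim1 and Sim2 had at most 1 count in any library.

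Of 22 other genes known as receptor targets 18 were tested, 1 rose and 0 fell, beside 2.68% of all genes that passed. The median log2 fold change was -0.02, and 8 had an unadjusted p under 0.05 (18.5% of all genes). By DESeq2 5 were called (6.77% of all genes) and by limma-voom 1 (2.78%). The gene that rose was Fmo2, a flavin monooxygenase. It measured 22.2, 14.2, 23.0 and 23.0 CPM in antibiotics libraries 1, 2, 3 and 5, against 9.93, 7.01, 8.16, 13.6 and 7.56 CPM in control libraries 1 to 5. Antibiotics library 2 lay just above the highest control. The log2 fold change of Fmo2 was 1.15 ± 0.20 (edgeR adjusted p = 0.0188). Classic detoxification targets did not pass. Gsta1, a glutathione transferase so close to Gsta2 that the genes could share reads, had a log2 fold change of -2.23 (adjusted p = 0.0732), with control library 1 at 1.19 CPM and the other controls at 3.70 to 14.3 CPM. The amino acid transporter Slc7a5 had a log2 fold change of -0.65 (adjusted p = 0.0825) and Htatip2 one of -0.40 (adjusted p = 0.0979). Nqo1, the quinone reductase, measured 3.84 ± 0.173 CPM with antibiotics and 5.12 ± 1.32 CPM in controls (adjusted p = 0.222). Cyp1b1, the third member of the CYP1 family in the lists, measured 0.638 ± 0.157 CPM with antibiotics and 0.563 ± 0.295 CPM in controls (adjusted p = 0.886). Nqo1 and Cyp1b1 were chosen after their values were seen. Aldh3a1, Scin and Ido1 had at most 2 counts in any library, and Il22 had 0.

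The enzymes that make or clear indole and kynurenine ligands of the receptor held 5 of the 7 calls. Among 21 tested of 22, 3 were higher and 2 lower, beside 2.68% of all genes that passed. The median log2 fold change was 0.13. An unadjusted p under 0.05 was found for 10 (18.5% of all genes), with 8 calls by DESeq2 (6.77%) and 6 by limma-voom (2.78%). The sulfotransferase Sult1b1 measured 24.4, 19.96, 22.8 and 20.4 CPM in antibiotics libraries 1, 2, 3 and 5, against 12.9, 14.4, 14.01, 10.4 and 10.6 CPM in control libraries 1 to 5. The groups are far apart, and Sult1b1 passed in each of the 9 fits that left out 1 library (log2 fold change 0.81 ± 0.11, edgeR adjusted p = 0.0109). Sult1a1, the sulfotransferase that makes indoxyl sulfate, averaged 267 ± 28.5 CPM with antibiotics and 164 ± 26.9 CPM in controls (SD, n = 4 and 5), with a log2 fold change of 0.70 ± 0.12 (adjusted p = 0.0194). The next in order of p did not pass. These were the decarboxylase Ddc, with a log2 fold change of -0.51 (adjusted p = 0.0535), and Cyp2e1, which oxidises indole, with one of 0.53 (adjusted p = 0.0661), both chosen after their values were seen.

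In the kynurenine branch, Kyat3, an aminotransferase that forms kynurenic acid, fell to 184 ± 5.19 CPM with antibiotics, against 253 ± 19.8 CPM in controls (log2 fold change -0.46 ± 0.08, edgeR adjusted p = 0.0156). Afmid, the formamidase that yields kynurenine, rose to 71.1 ± 15.03 CPM with antibiotics, against 43.3 ± 9.88 CPM in controls (log2 fold change 0.71 ± 0.17, adjusted p = 0.0487). The aldehyde oxidase Aox1 fell to 48.7 ± 3.47 CPM with antibiotics, against 71.6 ± 14.03 CPM in controls (log2 fold change -0.56 ± 0.13, adjusted p = 0.0450). Fmo2, Kyat3 and Sult1a1 each missed the threshold without antibiotics library 1, 3 or 5, with adjusted p of up to 0.0686, 0.0603 and 0.0670. Aox1 passed only without control library 1 or 5 (up to 0.129 in the other fits) and Afmid only without control library 1 (up to 0.131).

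**Figure D5:**
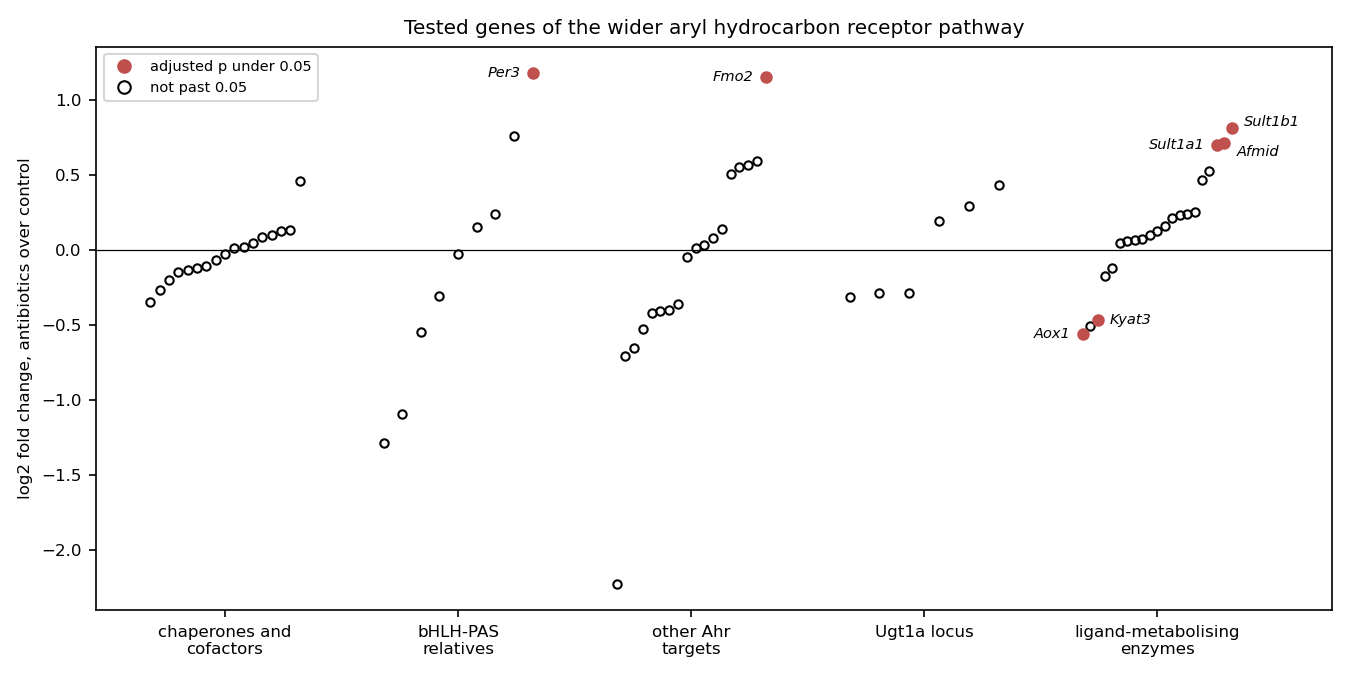
Fitted log2 fold changes (antibiotics over control) of the 71 tested genes in the 5 wider lists, ordered within each list; filled points passed an adjusted p of 0.05. The 7 filled points are Per3, Fmo2, Sult1b1, Sult1a1 and Afmid above 0 and Kyat3 and Aox1 below 0.

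The genes whose pattern over the 9 libraries was most like that of Cyp1a1 were sought among the 12456 genes that averaged 1 CPM or more, by the root mean square difference of centred log2 CPM. The zinc finger gene Nfxl1 was closest (0.225 log2 units), at 9.87, 7.36, 7.18 and 6.15 CPM in antibiotics libraries 1, 2, 3 and 5, against 21.01, 14.2, 16.2, 17.3 and 12.9 CPM in control libraries 1 to 5. Like Cyp1a1, it was highest in library 1 of each group. The meiotic cohesin gene Rec8 followed (0.254 log2 units), at 1.37 ± 0.354 CPM with antibiotics and 3.44 ± 0.696 CPM in controls, and then Entpd7, a nucleoside triphosphate hydrolase (0.314 log2 units), at 2.00 ± 0.598 CPM with antibiotics and 3.24 ± 0.566 CPM in controls. These genes were picked for their likeness, so their group difference carries no test.

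For Cyp1a2 the closest patterns were those of AC114539.1 (0.0959 log2 units), of Hao1, the hepatic glycolate oxidase (0.104), and of the cytochrome P450 gene Cyp2c67 (0.106). Hao1 averaged 276 ± 35.3 CPM with antibiotics and 253 ± 22.4 CPM in controls, and Cyp2c67 293 ± 37.4 CPM with antibiotics and 260 ± 37.8 CPM in controls (SD, n = 4 and 5). None of the 3 stands among the 3 genes closest to Cyp1a1. The measure includes the group difference, in which Cyp1a1 and Cyp1a2 already differed, so this adds no information about the pair.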

How the data were processed

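Liver transcripts of 4 antibiotics and 5 control libraries were sequenced. Per the labels' protocols, tissue was kept in RNAlater, RNA was extracted with Trizol and RNeasy, and libraries were made with a stranded mRNA kit. The authors deposited estimated counts per gene, made with Salmon and GRCm38, per the submitters' processing notes. Neither the Salmon version nor the use of strand in counting is given in the sources used here. The counts were whole numbers and were used as deposited. All 54393 gene identifiers are in GENCODE M21.

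Genes were kept by filterByExpr of edgeR 4.0.16 (minimum count 10, minimum total 15), scaled by TMM and tested with the quasi-likelihood F test in R 4.3.3, with 1 term, the group, and p-values adjusted by Benjamini-Hochberg over 14873 genes. The biological coefficient of variation was 16.7%. The script was run on simulated counts with known changes as a check. Intervals on counts are exact binomial intervals at 95% and cover counting error only. DESeq2 1.42.0 and limma-voom 3.58.1 were alternatives, beside other scalings, filters and thresholds, a replicate block, thinning and omission of each library. Close copies were sought with BLAST+ 2.17.0 on both strands (95% identity over 200 nt). Ahr, Arnt, Ahrr, Cyp1a1 and Cyp1a2 had none, and Ugt1a6a did. The match of Tiparp was the pseudogene that overlaps it on the opposite strand. Promoter windows came from RefSeq (GRCm38.p6). Whether each library is a mouse of its own is not stated in the labels, and the p-values measure only the spread among the 9 libraries, which may be technical. Replicates all differed by more than sampling noise (chi-square per degree of freedom at least 20.2).

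All 7 members are named whatever their values. Of each wider list, up to 4 genes with the smallest p and every gene that passed may be named, and for Cyp1a1 and Cyp1a2 the 3 genes with the most similar pattern. Single cell type markers and genes of the lists with few counts, as well as Per1, were named after their values were seen. The planned permutation test of the Cyp1a1 to Cyp1a2 ratio is not used, since the ratio restates the Cyp1a1 difference. The members and lists were chosen with earlier results of these data known. From the wider lists, 1 gene is not reported here and stands outside their counts.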

Additional observations from a re-analysis of the deposited data

Results flagged for a closer look

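Of 68 gene and group combinations (34 named genes in 2 groups), 5 had 1 library far from the rest of its group, measured by the gap to the nearest library over the range. Chance gives such a gap in about 1 of 20. All 5 were among the antibiotics libraries, and none was a member of the battery. Fmo2 was at 14.2 CPM in antibiotics library 2, against 22.2 to 23.0 CPM in the other antibiotics libraries. Gsta1 was at 2.43 CPM in antibiotics library 5, against 1.28 to 1.38 CPM in the others. Htatip2 was at 16.9 CPM in antibiotics library 1, against 19.01 to 19.3 CPM in the others. Afmid was at 93.6 CPM in antibiotics library 1, against 62.4 to 64.2 CPM in the others. Rec8 was at 1.90 CPM in antibiotics library 1, against 1.16 to 1.24 CPM in the others.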

How the results depend on the processing

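The number of genes that passed was 398 at an adjusted p of 0.05, 937 at 0.10, 20 at 0.01, 977 with DESeq2, 129 with the replicate block and 36 to 455 without 1 library. Of the battery, 1 member passed in the main analysis, 0 at an adjusted p of 0.01, 0 with the replicate block and 0 to 1 without 1 library. Of the wider lists 7 genes passed in the main analysis, 19 with DESeq2, 18 at 0.10, 0 at 0.01 and 1 to 8 without 1 library; with the replicate block 5 passed, 5 higher and 0 lower, so Kyat3 and Aox1 were not called. Cyp1a1 was lower under each of its 19 alternatives (log2 fold change -1.45 to -1.16, adjusted p 0.000455 to 0.0828), and with the replicate block it was -1.28 (adjusted p = 0.0624). Whether the replicate numbers pair the libraries is not stated in the labels. Deviations of libraries with the same number correlated at -0.00, -0.06, 0.03 and 0.10, and 2 of 4 antibiotics libraries correlated best with their own number. A check on so few libraries cannot decide whether they are paired. Tiparp reversed to 0.039 with the replicate block, 0.037 after thinning, 0.03 without antibiotics library 1, 0.09 without antibiotics library 5 and 0.13 without control library 1 (range without 1 library -0.22 to 0.13). Ahr reversed to -0.062 without control library 5 (range -0.06 to 0.27). The causes of these reversals were not tested. Ugt1a6a by itself was lower in each fit (range without 1 library -0.29 to -0.18). The sum of all Ugt1a genes, which is another quantity, had a log2 fold change of 0.030. In exact two-sided permutation tests, not adjusted over genes, Arnt had p = 0.0476 and Ugt1a6a p = 0.0238. The difference in the ratio of Cyp1a1 to Cyp1a2 was -1.64 to -1.30 without 1 library. Depth limits Cyp1a1 (8 to 77 counts) and Ahrr (1 to 13 counts).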
